A study of Homo sapiens with 18 samples.

Results

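The direct comparison of a PRMT5 inhibitor with a CDK4/6 inhibitor in A375 cells was made from 4 of the 18 libraries of the series, the PRMT5i and CDK4/6i libraries of 72 hours. A375 is an established human melanoma line with mutated BRAF and wild-type p53. PRMT5i cells received GSK3326595 at 500 nM and CDK4/6i cells received palbociclib at 1 µM, each for 72 hours and each as 2 replicates. The 2 control libraries of A375 at 72 hours, cells kept in DMSO alone for the same time, were read beside them. All these libraries come from a single unmodified cell line. The 2 doses differ, and a difference between the drugs cannot be told apart from a difference in how strongly each target was inhibited. The authors chose both doses from dose-response assays of growth inhibition. Citing earlier work, the paper states that both drugs lower PRMT5 activity at these doses, neither of them completely. The labels do not say whether replicates came from separate cultures, and p-values measure only the spread between these libraries, which may be technical.

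Palbociclib occupies the kinases CDK4 and CDK6, which act with the D cyclins and phosphorylate RB. Unphosphorylated RB holds E2F factors, and E2F target genes supply the enzymes of DNA replication and much of the machinery of mitosis. PRMT5, with its partner WDR77, places symmetric dimethyl marks on arginines of histones and of Sm proteins, the core of the spliceosomal snRNPs. Loss of these marks is known to disturb the splicing of many transcripts, MDM4 among them, and MDM4 is an inhibitor of p53. The question behind the pair of treatments was how far the response to CDK4/6i overlaps with that to PRMT5i.

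Poly-A RNA was sequenced and read pairs were counted per gene, with 16213475 and 16512598 counted in the PRMT5i libraries, 18368608 and 19554353 in the CDK4/6i libraries and 18701959 and 19598242 in the controls. Levels are given as CPM (counts divided by the library's scaled total and brought to a common scale of 1e6) on library sizes scaled by trimmed means (TMM), for replicate 1 and then replicate 2. Values in parentheses after a gene's levels are the log2 difference of PRMT5i minus CDK4/6i ± its standard error, with the adjusted p of edgeR's quasi-likelihood test. The coefficient of variation between replicates, estimated across genes, was 0.12 for PRMT5i, 0.0684 for CDK4/6i and 0.105 for the control. The melanoma marker PRAME stood at 151 and 148 CPM under PRMT5i, 146 and 125 under CDK4/6i and 137 and 133 in the control, whereas the pigment enzyme gene TYR had at most 3 counts in every library. SOX10 and MLANA were not analysed here. Other melanoma markers moved: S100B and PMEL were called lower and MITF higher under PRMT5i than under CDK4/6i. PRAME, MCAM, CSPG4 and DCT were not called. The difference of PMEL ran from -1.43 to -0.67 (log2) over the alternatives, and its call was lost with all 10 A375 libraries and with DESeq2. Of 17 markers of other cell types with an entry, 5 were called between the drugs, beside 22.1% of all genes. The summed level of the 7 epithelial markers was 35.5 and 44.6 CPM under PRMT5i, 59.8 and 66.8 under CDK4/6i and 36.7 and 34.8 in the control. The 2 epithelial markers that were called, KRT14 (-1.44 ± 0.23, adjusted p = 9.4e-04) and KRT15 (-1.51 ± 0.15, adjusted p = 5.6e-05), are keratins, and the differences of all 7 ran from -1.51 to -0.039 (log2). The general epithelial marker EPCAM, at the upper end of this range, stood at 2.23 and 1.79 CPM under PRMT5i, 2.66 and 1.49 under CDK4/6i and 2.33 and 1.72 in the control. The 4 leukocyte markers summed to 3.4 and 5.18 CPM under PRMT5i, 9.78 and 9.22 under CDK4/6i and 2.33 and 3.03 in the control, nearly all of it LYZ, while the general leukocyte marker PTPRC was at most 0.463 CPM in every library. The 6 fibroblast and endothelial markers summed to 34.0 and 32.4 CPM under PRMT5i and 31.2 and 26.4 under CDK4/6i. The part of these cell types in the results was not tested.

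The drugs were separated by a large set of genes. Of 20705 genes, 4571 differed between PRMT5i and CDK4/6i at an adjusted p below 0.05 in edgeR's quasi-likelihood test, which is 22.1% of all genes tested. A gene past this threshold is called here. Of these, 2364 were higher under PRMT5i (11.4% of all genes) and 2207 were lower (10.7%), and the median size of a called difference was 0.648 on the log2 scale. A difference of at least 2-fold was held by 407 of the higher and 678 of the lower genes. An unadjusted p below 0.05 was reached by 7055 genes. Without CDK4/6i replicate 1 the count fell to 1507 and without CDK4/6i replicate 2 to 1368, of which 1500 and 1363 were called in the same direction with all 6 libraries. A fit that added the 4 A375 libraries of 6 days, which belong to another library set, called 1129 genes, all of them also called with the 6 libraries and in the same direction.

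**Figure D1:**
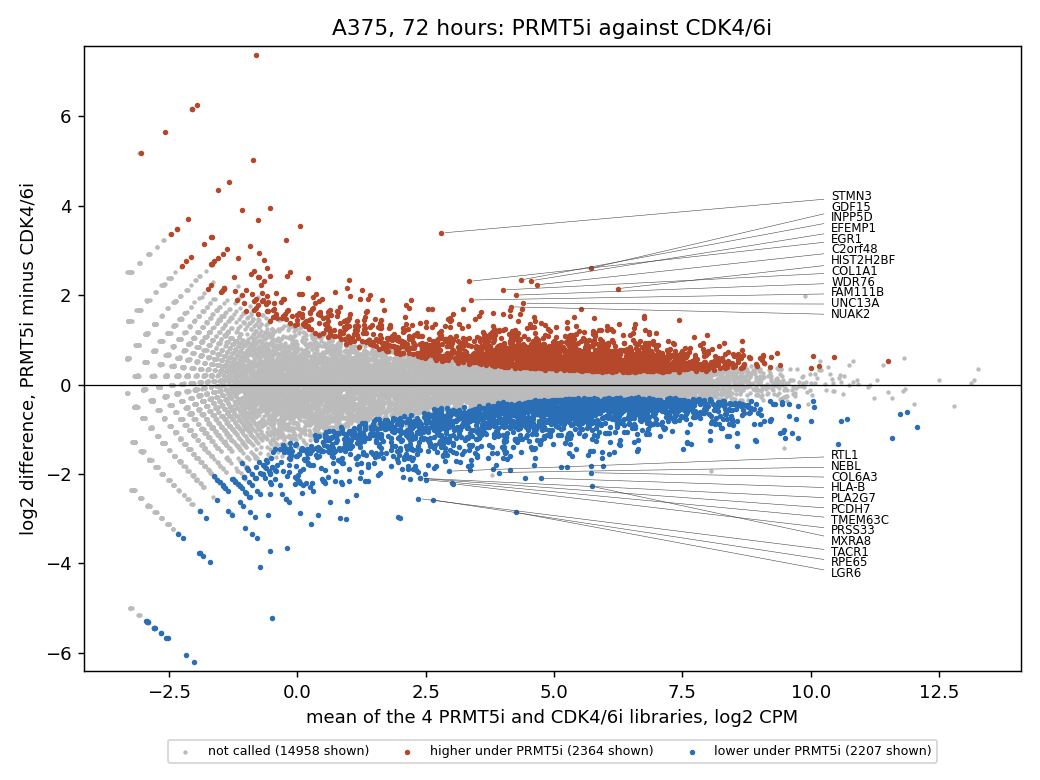
Log2 difference of PRMT5i minus CDK4/6i (vertical axis) against the mean level of the 4 drug-treated libraries in log2 CPM (horizontal axis), a point per gene with a mean of at least 0.1 CPM. Red points are the 2364 genes called higher under PRMT5i, blue points the 2207 called lower and grey points genes not called. The labels name the 12 largest differences in each direction among called genes with at least 5 CPM and no overlap between the drugs. Clone-named loci, small RNAs and ribosomal protein pseudogenes were left out of the labels.

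Most genes that separated the drugs had moved further from the control under CDK4/6i. Each drug was set against the same 2 control libraries, so these comparisons are not independent and their values are given side by side. Against the control, 6424 genes were called under CDK4/6i (31.0%) and 3265 under PRMT5i (15.8%). Under CDK4/6i 14.7% of all genes were called higher than the control and 16.3% lower, and under PRMT5i 6.64% were higher and 9.13% lower. The first count was 3357 and 3237 without CDK4/6i replicate 1 and 2. The second was 1598 without control replicate 1, 1865 without PRMT5i replicate 2, and 1862 and 1856 without CDK4/6i replicate 1 and 2, which enter it through the shared estimate of the spread. Among the 4571 genes that separated the drugs, the control mean lay nearer to PRMT5i for 3374 genes (73.8%), against 59.7% of all genes tested. It lay between the drugs for 2268 (49.6%, against 31.8% of all genes). It lay beyond PRMT5i for 1949 (42.6%), a share near the 42.4% of all genes. It lay beyond CDK4/6i for 354 (7.74%, against 25.8% of all genes). The control lay nearer to PRMT5i for 73.2% of the genes higher under PRMT5i and for 74.5% of the genes lower under it. Without PRMT5i replicate 1 the share nearer to PRMT5i was 65.7% of called genes. Beyond PRMT5i here means that both drugs had moved the gene's mean the same way from the control, CDK4/6i further.

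A GC difference ran along with the comparison. The median GC content of the longest transcript was 44.4% for genes called higher under PRMT5i and 52.5% for genes called lower, and across 13254 genes of at least 1 CPM with a GC value the difference correlated with GC content at a Spearman rho of -0.20, a description over genes that share the same libraries. Relative to each gene's median over the 6 libraries, the 10% of genes highest in GC content, less the 10% lowest in it, had a median of 0.18 and 0.27 (log2) in the CDK4/6i libraries, -0.061 and 0.031 in the PRMT5i libraries and -0.14 and -0.19 in the control. With this trend removed from every library, 4100 of 16363 genes were called, against 4377 of the same genes without the correction, and the list median that moved most over the same genes was that of matrix genes, from -0.49 to -0.34. The part of GC content in the results was not tested further.

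The kinases that palbociclib occupies were not called apart between the drugs. CDK4 read 112 and 134 CPM under PRMT5i, 127 and 124 under CDK4/6i and 115 and 138 in the control, and CDK6 read 529.9 and 558 CPM under PRMT5i, 549 and 563 under CDK4/6i and 604 and 645 in the control. For both kinases the drug-treated libraries overlapped, with log2 differences of PRMT5i minus CDK4/6i of -0.028 ± 0.12 and -0.033 ± 0.12 (standard error). RB1, whose product is the substrate of CDK4/6, stood at 82.2 and 86.8 CPM under PRMT5i, 87.6 and 81.2 under CDK4/6i and 113 and 124 in the control, so that all drug-treated libraries lay below the control, with a difference between the drugs of 0.0012 ± 0.10. CDK16, a further cyclin-dependent kinase, was not called either (-0.21 ± 0.10, adjusted p = 0.18).

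Among the D cyclins, which activate CDK4/6, CCND1 was lower and CCND2 higher under PRMT5i. CCND1 read 402 and 489 CPM under PRMT5i, 747 and 769 under CDK4/6i and 401 and 414 in the control. Its PRMT5i libraries sat near the control and both CDK4/6i libraries above them, a difference of -0.77 ± 0.13, adjusted p = 0.0011. CCND2 was nearly silent in the control, at 1 and 3 counts, and read 1.76 and 2.17 CPM under PRMT5i and 0.435 and 0.566 under CDK4/6i. Measured against 3 counts per control library, its mean level was at least 12.6-fold higher under PRMT5i and at least 3.21-fold higher under CDK4/6i, and the drugs differed by 1.95 ± 0.42, adjusted p = 0.0054, a call lost without either CDK4/6i replicate. CCND3 was not called (-0.16 ± 0.15, adjusted p = 0.48). Of the 10 measured D cyclins, kinases and CDK inhibitors, 2 were called higher and 1 lower under PRMT5i. Beside 11.4% and 10.7% of all genes, these counts are too small to set the list apart. The second of the higher genes was the CDK4/6 inhibitor gene CDKN2C (0.56 ± 0.12, adjusted p = 0.0045), whose call was lost without CDK4/6i replicate 2.

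PRMT5 read 16.5 and 21.2 CPM under PRMT5i, 11.4 and 12.6 under CDK4/6i and 12.6 and 14.8 in the control. Both PRMT5i libraries lay above the other 4, and the difference from CDK4/6i was 0.65 ± 0.16, adjusted p = 0.012, a call that was lost without PRMT5i replicate 2 or either CDK4/6i replicate. Its partner WDR77 read 45.0 and 55.4 CPM under PRMT5i, 42.3 and 44.2 under CDK4/6i and 34.0 and 38.4 in the control and was not called (0.21 ± 0.12, adjusted p = 0.24). MTAP, the methionine salvage enzyme whose loss sensitizes cells to PRMT5 inhibition, was not analysed here. Of 15 measured genes of the PRMT5 methylosome and methionine salvage, 5 were higher under PRMT5i and 1 lower, beside 11.4% and 10.7% of all genes. The list median was 0.21. The salvage enzyme gene ENOPH1 (0.74 ± 0.11, adjusted p = 5.5e-04) was the only called member that kept its call without either CDK4/6i replicate. The lower member was AHCY, which clears the by-product of methylation (-0.33 ± 0.10, adjusted p = 0.042), a call lost without PRMT5i replicate 1 or either CDK4/6i replicate. RIOK1, which brings substrates to PRMT5, differed by 0.63 ± 0.14, adjusted p = 0.0056, a call lost without PRMT5i replicate 2 or either CDK4/6i replicate. Of the 8 other arginine methyltransferases 2 were higher, PRMT3 (0.46) and PRMT7 (0.29), and 0 were lower, beside 11.4% and 10.7% of all genes. Both calls were lost without either CDK4/6i replicate, that of PRMT7 without any one of the 6 libraries.

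Most genes of the cell cycle lists were called lower than the control under both drugs, and many were lower under CDK4/6i than under PRMT5i. Among the cell cycle lists the largest median difference was in replication-dependent histones, which package newly made DNA. Of 69 such genes, 50 were higher under PRMT5i than under CDK4/6i and 1 was lower, against 11.4% and 10.7% of all genes, with a median log2 difference of 1.00 beside 0.012 over all genes tested. Against the control, 53 were called lower under PRMT5i (median -0.93) and 58 under CDK4/6i (median -2.12). HIST2H2BF, an H2B gene, read 103 and 144 CPM under PRMT5i, 24.7 and 31.1 under CDK4/6i and 185 and 252 in the control. Both PRMT5i libraries thus lay between the control and CDK4/6i, 4.43-fold above the mean of the latter (2.15 ± 0.18, adjusted p = 2.2e-05). HIST1H4A, a gene of histone H4, read 28.6 and 34.7 CPM under PRMT5i, 8.2 and 11.2 under CDK4/6i and 61.4 and 94.5 in the control, in the same order (1.70 ± 0.21, adjusted p = 1.9e-04). The member called lower under PRMT5i was HIST2H2BB (-0.64), a call lost without PRMT5i replicate 2 or either CDK4/6i replicate. Without CDK4/6i replicate 1 and 2, 28 and 36 histone genes were called higher. These mRNAs mostly lack a poly-A tail, the libraries were made from poly-A RNA, and many of these genes have nearly the same coding sequence, so that their counts are uncertain in level and in assignment.

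Origin licensing, the loading of the replicative helicase before S phase, showed the same order. Of 21 genes, 13 were called higher under PRMT5i than under CDK4/6i and 0 lower (median 0.62). Against the control 19 were lower under PRMT5i and all 21 were lower under CDK4/6i. GINS2, a subunit of the helicase complex, read 21.5 and 25 CPM under PRMT5i, 8.53 and 11.0 under CDK4/6i and 31.2 and 39.8 in the control (1.25 ± 0.17, adjusted p = 3.0e-04). GMNN, which restrains re-licensing, read 26.4 and 26.2 CPM under PRMT5i, 10.5 and 12.0 under CDK4/6i and 31.6 and 41.4 in the control (1.22 ± 0.15, adjusted p = 1.9e-04), and CDT1, the loader it binds, read 64.5 and 62.5 CPM under PRMT5i, 32.1 and 30.1 under CDK4/6i and 75.8 and 81.7 in the control (1.03 ± 0.10, adjusted p = 5.5e-05). For all 3 genes both PRMT5i libraries lay above both CDK4/6i libraries and below both controls. CDC45, which joins the active helicase, read 24 and 23.5 CPM under PRMT5i, 12.3 and 13.5 under CDK4/6i and 46.4 and 47.1 in the control (0.88 ± 0.12, adjusted p = 3.3e-04), with the same order.

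At the replication fork, 19 of 29 genes were higher under PRMT5i and 0 lower (median 0.50). POLE2, a subunit of the leading-strand polymerase, read 14 and 14.6 CPM under PRMT5i, 3.86 and 5.05 under CDK4/6i and 25.1 and 26.9 in the control, a 3.22-fold gap between the drug means (1.68 ± 0.17, adjusted p = 5.4e-05). PRIM1, the primase subunit, read 23.2 and 19.4 CPM under PRMT5i, 6.79 and 7.16 under CDK4/6i and 28.9 and 34.4 in the control (1.61 ± 0.15, adjusted p = 4.4e-05), and TYMS, which makes thymidylate, read 17.1 and 16.7 CPM under PRMT5i, 6.74 and 8.29 under CDK4/6i and 19.9 and 20.8 in the control (1.17 ± 0.15, adjusted p = 2.4e-04). Of these, POLE2 and PRIM1 were also called lower under PRMT5i than in the control (-0.86, adjusted p = 0.0019, and -0.57, adjusted p = 0.014), while TYMS was called lower against the control only under CDK4/6i (-1.43, adjusted p = 1.6e-05, against -0.27, adjusted p = 0.23 under PRMT5i). Of the 2 subunits of ribonucleotide reductase measured, 1 was called. RRM1 read 126 and 128 CPM under PRMT5i, 57.1 and 58.0 under CDK4/6i and 135 and 172 in the control (1.15 ± 0.12, adjusted p = 6.8e-05), whereas RRM2, looked up after its values were seen, read 83.9 and 96.7 CPM under PRMT5i, 71.2 and 85.8 under CDK4/6i and 230.2 and 339 in the control. The drug-treated libraries of RRM2 overlapped and all lay below the control (difference 0.20 ± 0.16, adjusted p = 0.43). C2orf48, a symbol that RefSeq lists as a synonym of RRM2, read 47.6 and 36 CPM under PRMT5i, 8.48 and 9.32 under CDK4/6i and 87.7 and 62.3 in the control, one of the largest differences of the whole comparison (2.23 ± 0.19, adjusted p = 1.8e-05), so that the 2 symbols of this locus gave different answers. How reads were divided between them was not tested, and both values are uncertain.

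The E2F, RB and cell cycle cyclin genes were called higher under PRMT5i in 15 of 29 cases and lower in 2 (median 0.53). E2F2 read 13.0 and 10.2 CPM under PRMT5i, 4.73 and 6.23 under CDK4/6i and 25.2 and 26.7 in the control (1.08 ± 0.18, adjusted p = 0.0013). MYBL2, an activator of late cell cycle genes, read 81.7 and 86.2 CPM under PRMT5i, 30.4 and 41.7 under CDK4/6i and 133 and 165 in the control (1.22 ± 0.15, adjusted p = 1.7e-04), and CCNA2, cyclin A2, read 44.4 and 48.5 CPM under PRMT5i, 21.1 and 26.7 under CDK4/6i and 78.1 and 103 in the control (0.96 ± 0.15, adjusted p = 8.3e-04). In each of the 3 the PRMT5i libraries lay between CDK4/6i and control. The 2 members that were lower under PRMT5i were CDC25B, a phosphatase that activates CDK1 (-0.55 ± 0.12, adjusted p = 0.0058), and E2F5, a repressive E2F (-0.48 ± 0.14, adjusted p = 0.026), and both calls were lost without either CDK4/6i replicate.

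Mitosis gave 45 of 55 genes higher under PRMT5i than under CDK4/6i and 0 lower (median 0.64), with 51 and 55 lower than in the control under PRMT5i and CDK4/6i. MKI67, the proliferation marker, read 287 and 308 CPM under PRMT5i, 146 and 174 under CDK4/6i and 491 and 553 in the control (0.90 ± 0.12, adjusted p = 3.9e-04). NUF2, a kinetochore protein, read 54.2 and 50.5 CPM under PRMT5i, 26.7 and 25.9 under CDK4/6i and 79.2 and 87.3 in the control (0.99 ± 0.11, adjusted p = 8.7e-05), and the kinesin KIF20A read 71.5 and 66.6 CPM under PRMT5i, 33.3 and 42.3 under CDK4/6i and 104 and 127 in the control (0.87 ± 0.13, adjusted p = 7.3e-04). All 3 kept the order control, PRMT5i, CDK4/6i without overlap. CDC27, a subunit of the anaphase-promoting complex, was not called (0.17 ± 0.11, adjusted p = 0.3). Without CDK4/6i replicate 1 and 2 the count of mitosis genes called higher fell to 17 and 25, that of fork genes to 13 and 15, that of licensing genes to 10 and 10 and that of E2F, RB and cyclin genes to 7 and 11, and the medians of these 4 lists stayed between 0.41 and 0.65.

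**Figure D2:**
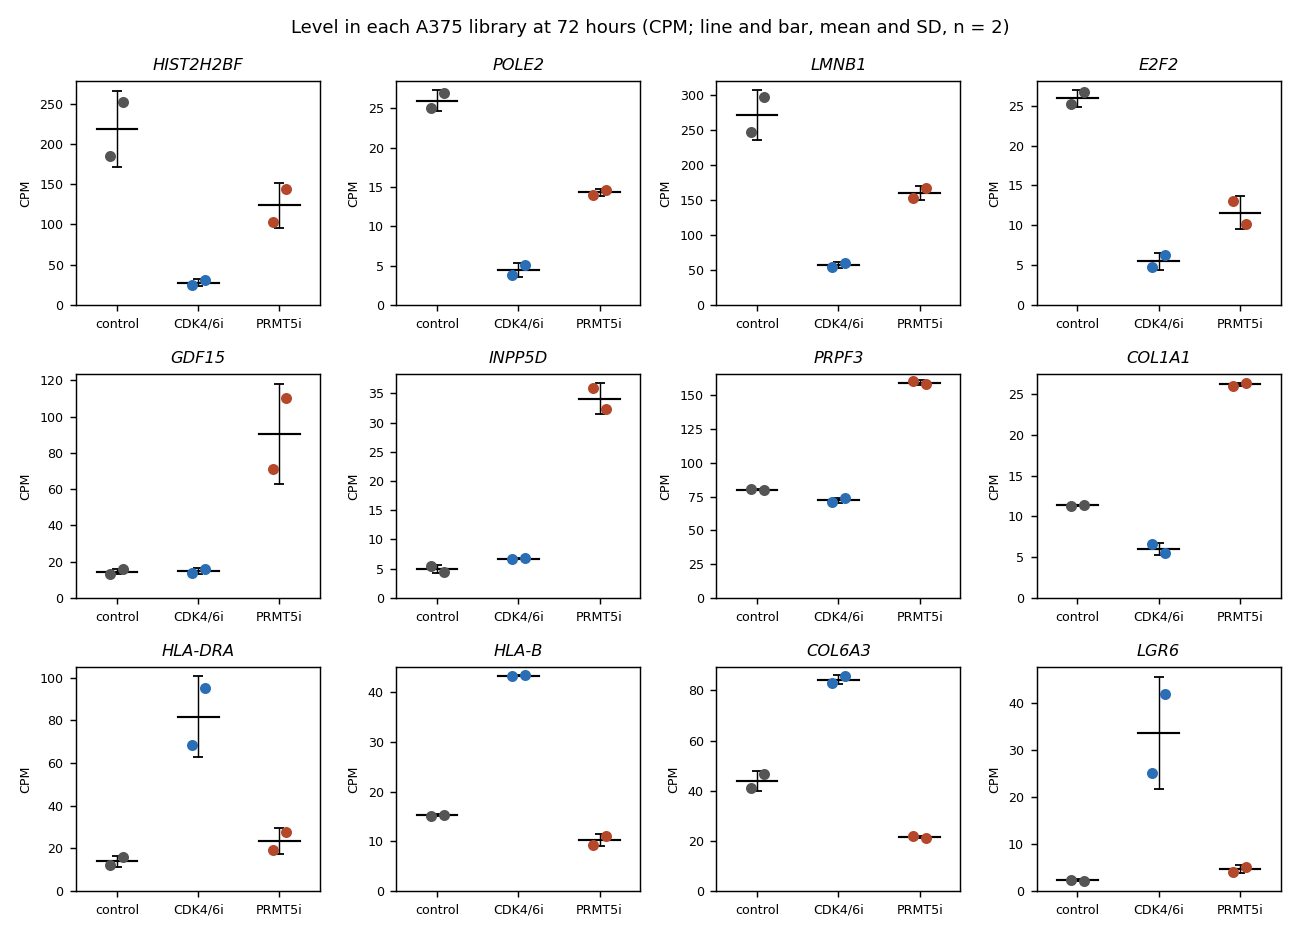
Level of 12 genes in each A375 library at 72 hours, in CPM on a linear axis from 0, a point per library, with the mean and SD (n = 2) of control (grey), CDK4/6i (blue) and PRMT5i (red). PRMT5i lies between control and CDK4/6i for HIST2H2BF, POLE2, LMNB1 and E2F2, above both for GDF15, INPP5D, PRPF3 and COL1A1, and CDK4/6i lies above both for HLA-DRA, HLA-B, COL6A3 and LGR6.

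The promoters of these genes were read for the letters of sites that are known from cell cycle genes. The window was 250 bases before to 50 bases after the start given by RefSeq (GRCh38.p14), read on both strands for CCAAT (the CCAAT box), TTTGAA (the cell cycle homology region) and TTTCCCGC or TTTGGCGC (forms of the E2F site). A promoter was given for 80 of the 92 licensing, fork, E2F and mitosis genes that were lower under CDK4/6i than under PRMT5i, for 36 of the 40 members not called and for 12462 of all 20705 genes. Of the 80, 52 held CCAAT (65%), 34 TTTGAA (42.5%) and 19 either E2F form (23.8%). The shares were 50%, 22.2% and 16.7% in the 36 promoters of members not called, and 35.9%, 10.7% and 3.32% over all genes. Only 1 of the 2 members called the other way had a promoter, and it held none of these letters. To show where the letters lie, promoters are given for PRIM1, GINS2 and TYMS, the 3 members with the largest difference (mean of at least 1 CPM) that had an entry and a match before the start, as the 250 bases before the start on the strand of the gene, with the matched letters in capitals. In PRIM1 (chr12:56752324-56752573, minus strand) CCAAT begins 18 bases before the start. In GINS2 (chr16:85688955-85689204, minus strand) CCAAT begins 158 bases before the start, and GCGGGAAA, the opposite-strand form of TTTCCCGC, begins 31 bases before it. In TYMS (chr18:657403-657652, plus strand) GCGGGAAA begins 39 bases before the start.
PRIM1: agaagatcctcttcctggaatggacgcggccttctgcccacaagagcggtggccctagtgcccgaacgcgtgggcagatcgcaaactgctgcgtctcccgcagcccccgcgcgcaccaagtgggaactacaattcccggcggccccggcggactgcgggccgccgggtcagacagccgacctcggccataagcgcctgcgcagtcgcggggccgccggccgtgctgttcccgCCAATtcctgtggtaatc
GINS2: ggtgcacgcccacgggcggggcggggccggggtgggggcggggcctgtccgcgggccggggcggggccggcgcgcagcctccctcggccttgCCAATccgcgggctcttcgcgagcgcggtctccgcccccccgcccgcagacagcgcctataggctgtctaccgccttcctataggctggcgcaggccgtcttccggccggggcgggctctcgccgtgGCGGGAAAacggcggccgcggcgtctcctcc
TYMS: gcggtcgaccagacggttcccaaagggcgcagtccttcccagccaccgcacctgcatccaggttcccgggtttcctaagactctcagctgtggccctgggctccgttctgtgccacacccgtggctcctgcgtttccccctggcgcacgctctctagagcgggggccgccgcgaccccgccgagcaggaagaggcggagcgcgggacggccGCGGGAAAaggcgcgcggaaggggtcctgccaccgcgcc
A match of letters is a description and not a measured site.

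Homologous recombination and Fanconi genes, which repair breaks at replication forks, were mostly higher under PRMT5i. Of 33, 20 were higher under PRMT5i and 1, FANCM, was lower (median 0.45), with 10 and 10 called higher without CDK4/6i replicate 1 and 2 and 12 without PRMT5i replicate 1. The call of FANCM was lost without any one of the 4 drug-treated libraries. BARD1, the partner of BRCA1, read 27.8 and 26.2 CPM under PRMT5i, 12.7 and 11.7 under CDK4/6i and 54.7 and 53.9 in the control (1.14 ± 0.12, adjusted p = 6.4e-05), and FANCA, of the Fanconi core complex, read 72.0 and 63.9 CPM under PRMT5i, 30.5 and 37.6 under CDK4/6i and 115 and 110.0 in the control (0.99 ± 0.12, adjusted p = 1.5e-04). Both genes were lower than in the control under both drugs, without overlap. Among lamins, HMG proteins and other nuclear genes linked to senescence, 13 of 24 were higher under PRMT5i and 1 was lower (median 0.47, and 5 and 4 higher without CDK4/6i replicate 1 and 2, or 8 without PRMT5i replicate 2). LMNB1, lamin B1, whose loss is a known mark of senescent cells, read 153 and 167 CPM under PRMT5i, 53.6 and 59.7 under CDK4/6i and 246 and 297 in the control. Each drug lay below the control, with a log2 difference of -0.76, adjusted p = 0.001, under PRMT5i and -2.26, adjusted p = 2.8e-07, under CDK4/6i, and the drug means differed 2.82-fold (1.50 ± 0.12, adjusted p = 1.4e-05). HMGB2, a chromatin protein, read 35.6 and 41.6 CPM under PRMT5i, 12.9 and 17 under CDK4/6i and 53.3 and 72.7 in the control (1.37 ± 0.17, adjusted p = 2.0e-04), in the same order. The member that was lower under PRMT5i was HMGA2, an architectural chromatin protein, at 389.6 and 338 CPM under PRMT5i, 733 and 601 under CDK4/6i and 659.6 and 559 in the control (-0.87 ± 0.14, adjusted p = 0.001), where the CDK4/6i libraries overlapped the control.

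Targets of p53 were more often higher under PRMT5i than lower. Of 35 genes of the p53 pathway, 18 were called higher and 1 lower than under CDK4/6i (median 0.44). Against the control, 29 genes were called higher under PRMT5i (median 0.99) and 22 under CDK4/6i (median 0.47), beside 6.64% and 14.7% of all genes. GDF15, a secreted stress cytokine, read 70.9 and 110.2 CPM under PRMT5i, 13.5 and 16.2 under CDK4/6i and 13.4 and 15.7 in the control. Its PRMT5i libraries stood 6.09-fold above CDK4/6i (2.60 ± 0.19, adjusted p = 1.1e-05), while CDK4/6i overlapped the control (0.031, adjusted p = 0.94). MDM2, the ubiquitin ligase of p53 and a p53 target, read 381 and 459.6 CPM under PRMT5i, 215 and 223 under CDK4/6i and 152 and 166 in the control (0.94 ± 0.12, adjusted p = 2.3e-04), higher than the control under both drugs. EDA2R, a death receptor, read 42.7 and 41.9 CPM under PRMT5i, 20.3 and 22.4 under CDK4/6i and 13.4 and 15.8 in the control (0.98 ± 0.12, adjusted p = 1.9e-04), and SESN1, a sestrin, read 34.0 and 38.9 CPM under PRMT5i, 18.1 and 20.4 under CDK4/6i and 17.1 and 17.3 in the control (0.92 ± 0.12, adjusted p = 3.4e-04).

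Not every p53 target followed. CDKN1A, the CDK inhibitor p21, named after its values were seen, read 438 and 613 CPM under PRMT5i, 374 and 412 under CDK4/6i and 134 and 139.7 in the control. Both drugs stood above the control and were not called apart (0.42 ± 0.15, adjusted p = 0.059). PERP, a membrane protein of cell junctions, was the member that was lower under PRMT5i (-0.73 ± 0.15, adjusted p = 0.0049), a call lost without either CDK4/6i replicate. MDM4 read 191 and 149 CPM under PRMT5i, 113 and 94.1 under CDK4/6i and 196 and 173 in the control. It was lower under CDK4/6i than in both other groups, with a difference of 0.72 ± 0.14, adjusted p = 0.0026 that was lost without CDK4/6i replicate 2, and PRMT5i overlapped the control (-0.12, adjusted p = 0.62). These are counts over the whole gene, which do not separate its splice forms. On leaving out CDK4/6i replicate 1 and 2, 9 and 11 genes of the p53 list were called higher. In the BCL2 family, regulators of cell death, 2 of 16 were higher and 3 lower under PRMT5i, beside 11.4% and 10.7% of all genes, counts too small to set the list apart. Those called higher were 4 without PRMT5i replicate 1 and 0 and 2 without CDK4/6i replicate 1 and 2, and those called lower 1 without either PRMT5i replicate and 0 without either CDK4/6i replicate. BAX, a pro-death member and p53 target, read 107 and 143 CPM under PRMT5i, 73.9 and 79.5 under CDK4/6i and 52.1 and 58.6 in the control (0.70 ± 0.13, adjusted p = 0.0023, lost without CDK4/6i replicate 1).

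Many genes of the splicing machinery were higher under PRMT5i than under CDK4/6i. Of 37 Sm and core snRNP protein genes, 20 were called higher and 0 lower (median 0.44), beside 11.4% and 10.7% of all genes. Of 38 SR protein and hnRNP genes, 22 were higher and 0 lower (median 0.43). Against the control the first list had 6 genes higher and 0 lower under PRMT5i, and 0 higher and 11 lower under CDK4/6i. The second had 1 higher and 1 lower under PRMT5i, and 1 higher and 23 lower under CDK4/6i. Of all genes, 6.64% were higher and 9.13% lower under PRMT5i, and 14.7% higher and 16.3% lower under CDK4/6i. Under PRMT5i the second list was thus called no more often than all genes. PRPF3, a protein of the U4/U6 snRNP, read 161 and 158 CPM under PRMT5i, 71.0 and 73.7 under CDK4/6i and 80.3 and 80.2 in the control. Both PRMT5i libraries stood at about the same level, 2.2-fold above CDK4/6i (1.14 ± 0.094, adjusted p = 1.8e-05), while CDK4/6i was not called against the control (-0.15, adjusted p = 0.26). HNRNPD, which binds AU-rich mRNA, read 147 and 179 CPM under PRMT5i, 87.3 and 89.1 under CDK4/6i and 147 and 172 in the control (0.89 ± 0.12, adjusted p = 3.4e-04), and here PRMT5i overlapped the control. PTBP2, a splicing repressor, read 87.8 and 73.1 CPM under PRMT5i, 43.3 and 43.2 under CDK4/6i and 116 and 103 in the control (0.90 ± 0.11, adjusted p = 2.2e-04). U2AF2, which binds the 3′ splice site, was not called (-0.087 ± 0.15, adjusted p = 0.74). The counts fell without a CDK4/6i replicate: without replicate 1 and 2 of that group 4 and 4 Sm and snRNP genes and 8 and 5 SR and hnRNP genes were called, and without PRMT5i replicate 2 11 and 13. The fit with the 6-day libraries called 3 and 5.

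Among 74 cytosolic ribosomal protein genes 3 were called higher under PRMT5i and 0 lower (median 0.036), below the 11.4% of all genes, and 0 and 1 were called higher without CDK4/6i replicate 1 and 2. Of 38 translation initiation factors, 8 were higher and 2 lower, beside 11.4% and 10.7% of all genes. Their median of 0.22 was 0.25 without either CDK4/6i replicate and 0.13 without PRMT5i replicate 2. The calls higher were not kept without either CDK4/6i replicate. Nucleolar rRNA processing and MYC genes had 13 higher and 1 lower of 33 (median 0.29, and 2 and 2 higher without CDK4/6i replicate 1 and 2, or 5 without PRMT5i replicate 2). FBL, fibrillarin, which methylates rRNA, read 192 and 224 CPM under PRMT5i, 104 and 115 under CDK4/6i and 149 and 178 in the control (0.92 ± 0.12, adjusted p = 2.8e-04). The lower member was MXD4, which competes with MYC for its partner MAX, at 42.5 and 45.4 CPM under PRMT5i, 114 and 107 under CDK4/6i and 28.1 and 26 in the control. Here both CDK4/6i libraries stood 2.52-fold above PRMT5i (-1.33 ± 0.10, adjusted p = 1.1e-05) and PRMT5i above the control (0.70, adjusted p = 9.6e-04). MYC itself was not called (0.15 ± 0.13, adjusted p = 0.46). Of 14 snoRNA host genes 2 were higher, too few to set the list apart from the 11.4% of all genes. They were SNHG1 (0.68 ± 0.10, adjusted p = 4.2e-04) and SNHG17 (0.57, lost without CDK4/6i replicate 1).

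Genes of MHC class II, which presents peptides to helper T cells, were higher under CDK4/6i where they were called. Of 15 MHC class II genes 9 were lower under PRMT5i than under CDK4/6i and 0 higher (median -1.44, or -1.27 with members at the counting floor set to their bound), against 10.7% lower among all genes. HLA-DRA, the alpha chain of HLA-DR, read 19.1 and 27.6 CPM under PRMT5i, 68.5 and 95.1 under CDK4/6i and 12.1 and 15.7 in the control. Both CDK4/6i libraries lay above the rest, 3.51-fold over PRMT5i (-1.81 ± 0.19, adjusted p = 6.8e-05), and PRMT5i was itself above the control (0.75, adjusted p = 0.025). CD74, the invariant chain that guards class II dimers, read 84.2 and 114 CPM under PRMT5i, 232 and 305 under CDK4/6i and 66.2 and 81.2 in the control (-1.44 ± 0.16, adjusted p = 1.2e-04), and CIITA, the transactivator of class II genes, read 19.5 and 23.3 CPM under PRMT5i, 46.8 and 59.5 under CDK4/6i and 16.4 and 16.9 in the control (-1.32 ± 0.14, adjusted p = 7.8e-05). HLA-DOA, at 5 and 3 counts under PRMT5i and 3 and 2 in the control, reached 1.63 and 2.68 CPM under CDK4/6i, at least 13.8-fold over the control. HLA-DQA2 had 0 counts in both PRMT5i libraries and 6 and 13 under CDK4/6i, at least 2.71-fold over 3 counts per PRMT5i library. CD74 and HLA-DQA2 were named for this list after their values were seen. With CDK4/6i replicate 1 and 2 left out in turn, 8 and 5 class II genes were called.

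MHC class I followed at a smaller scale. Of 18 class I and peptide loading genes 9 were lower under PRMT5i and 0 higher (median -0.37). HLA-B read 9.32 and 11.1 CPM under PRMT5i, 43.4 and 43.4 under CDK4/6i and 15.1 and 15.4 in the control, 4.26-fold higher under CDK4/6i (-2.09 ± 0.13, adjusted p = 4.5e-06), with PRMT5i below the control (-0.58, adjusted p = 0.011) and CDK4/6i above it (1.51, adjusted p = 2.7e-06). HLA-E read 38.8 and 42.8 CPM under PRMT5i, 83.6 and 89.0 under CDK4/6i and 43.6 and 46.1 in the control (-1.08 ± 0.10, adjusted p = 4.4e-05). For HLA-E PRMT5i lay narrowly under the control without overlap, and this difference was not called. HLA-B was the only class I gene called lower than the control under PRMT5i. HLA genes resemble each other closely, and reads of one can be counted on another. Without CDK4/6i replicate 1 and 2, 5 and 5 class I genes were called lower. Interferon-stimulated genes and sensors of nucleic acids had 2 higher and 13 lower of 39 (median -0.21), with 3 and 7 lower without CDK4/6i replicate 1 and 2. IFI35 read 17.8 and 19.0 CPM under PRMT5i, 41.3 and 39.1 under CDK4/6i and 26.7 and 25.8 in the control (-1.13 ± 0.11, adjusted p = 5.8e-05) and ISG20, an RNA exonuclease, read 34.3 and 37 CPM under PRMT5i, 72.1 and 71.8 under CDK4/6i and 49.4 and 53.7 in the control (-1.01 ± 0.10, adjusted p = 5.9e-05). HERC5, an interferon-induced ligase, was higher under PRMT5i (1.30 ± 0.25, adjusted p = 0.0032, lost without CDK4/6i replicate 2).

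**Figure D3:**
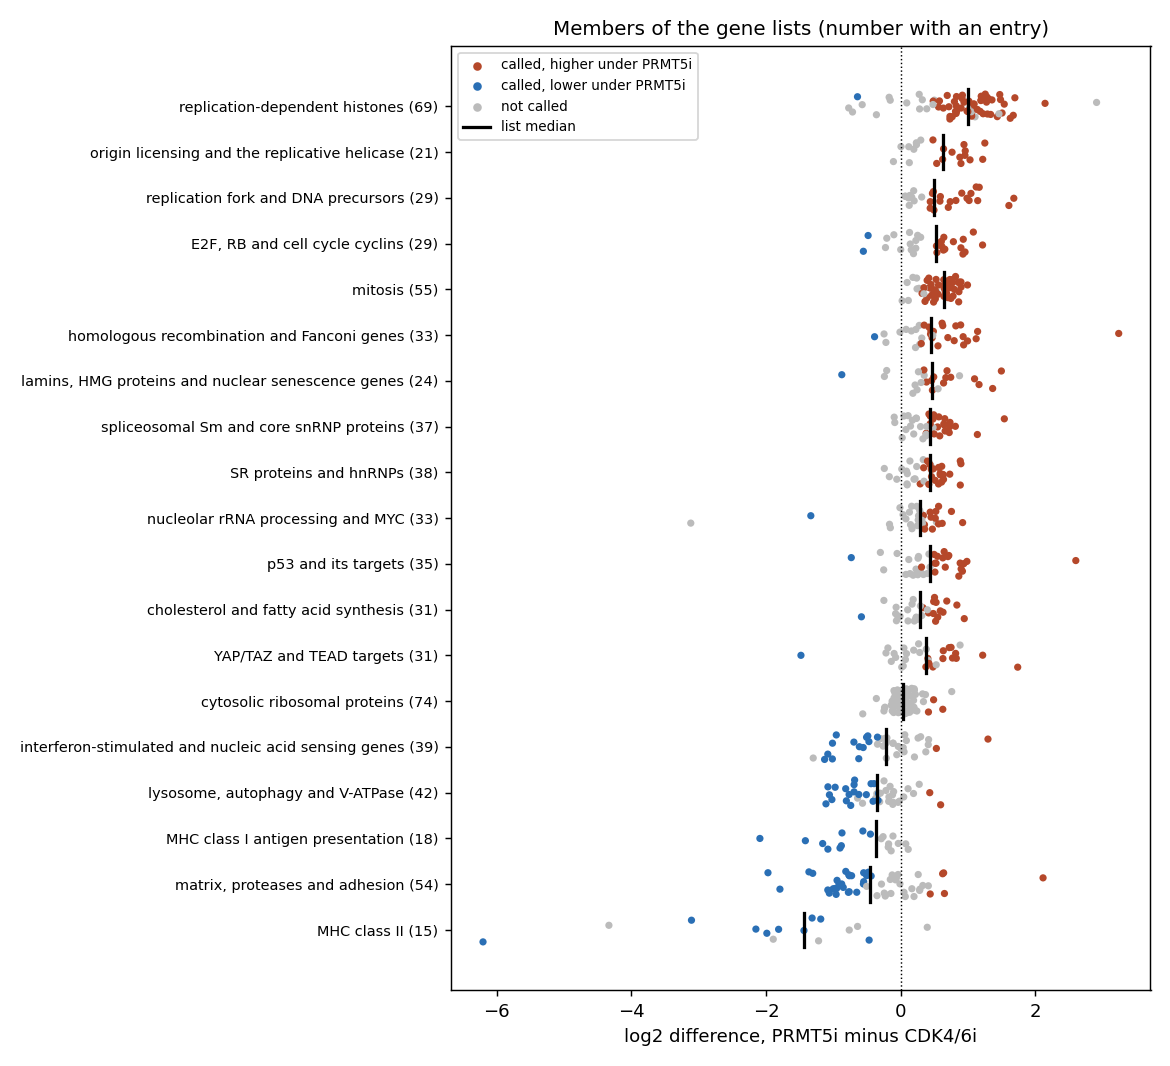
Log2 difference of PRMT5i minus CDK4/6i (horizontal axis) for each member of 19 gene lists (rows, with the number of members that have an entry), a point per gene, and the list median as a black bar. Histone, replication, mitosis, repair, splicing and p53 lists lie mostly to the right of 0, ribosomal proteins around it, and lysosome, MHC and matrix lists mostly to the left; the histone median is 1.00 and the MHC class II median -1.44, both including fitted values of members at the counting floor.

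Matrix, protease and adhesion genes were lower under PRMT5i in 27 of 54 cases and higher in 5 (median -0.46). COL6A3, a chain of collagen VI, read 21.8 and 21.2 CPM under PRMT5i, 83.0 and 85.6 under CDK4/6i and 41.1 and 46.8 in the control. PRMT5i lay below the control (-1.03, adjusted p = 1.5e-04) and CDK4/6i above it (0.94, adjusted p = 2.8e-05), so that the drugs stood 3.92-fold apart (-1.97 ± 0.11, adjusted p = 2.5e-06). FN1, fibronectin, read 450.4 and 463 CPM under PRMT5i, 856 and 1049 under CDK4/6i and 327 and 339 in the control (-1.06 ± 0.13, adjusted p = 1.8e-04), and ADAM19, a membrane protease, read 199.6 and 223 CPM under PRMT5i, 535 and 553 under CDK4/6i and 204 and 193 in the control (-1.36 ± 0.11, adjusted p = 1.8e-05). ITGA3, an integrin chain, read 488 and 529.6 CPM under PRMT5i, 1117 and 1038 under CDK4/6i and 859.8 and 847 in the control (-1.08 ± 0.12, adjusted p = 1.1e-04), called lower than the control under PRMT5i (-0.75, adjusted p = 0.0016). COL1A1, a chain of collagen I, went against the list at 26 and 26.3 CPM under PRMT5i, 6.57 and 5.51 under CDK4/6i and 11.3 and 11.4 in the control. Both PRMT5i libraries stood above the control and both CDK4/6i libraries below it (2.12 ± 0.15, adjusted p = 1.1e-05). COL5A1, of collagen V, was also higher under PRMT5i (0.65 ± 0.10, adjusted p = 6.6e-04). On leaving out CDK4/6i replicate 1 and 2, 20 and 20 matrix genes were called lower.

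The melanocyte lineage list had 1 gene higher and 6 lower of 22 (median -0.17), beside 11.4% and 10.7% of all genes. In the fit with all 10 A375 libraries 0 were higher and 3 lower. On average only 15 of the 22 members reached 1 CPM. The median of this list was -0.57 and -0.073 without PRMT5i replicate 1 and 2. It was -0.12 and -0.36 without CDK4/6i replicate 1 and 2. S100B, a marker of melanocytic and glial cells, read 4.16 and 4.6 CPM under PRMT5i, 13.0 and 12.4 under CDK4/6i and 4.3 and 3.81 in the control (-1.54 ± 0.18, adjusted p = 1.4e-04). For this gene CDK4/6i lay above the control, and PRMT5i was not called against it. The higher gene was MITF, the lineage factor, by 0.42 ± 0.10, adjusted p = 0.0075, lost without either CDK4/6i replicate. Of 29 genes of the dedifferentiated and invasive state, 7 were higher and 3 lower, beside 11.4% and 10.7% of all genes. The list had 4 and 3 higher without CDK4/6i replicate 1 and 2, and its median of 0.15 was 0.0029 without PRMT5i replicate 2. TGFBI, a matrix protein induced by TGF-beta, read 461 and 410.3 CPM under PRMT5i, 894 and 942 under CDK4/6i and 247 and 231 in the control (-1.08 ± 0.12, adjusted p = 1.1e-04), higher than the control under both drugs. CYR61, a secreted YAP target, read 172 and 134 CPM under PRMT5i, 77.8 and 53.4 under CDK4/6i and 104 and 88.9 in the control (1.22 ± 0.17, adjusted p = 3.6e-04), with the controls between the drugs.

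YAP/TAZ and TEAD targets were called higher under PRMT5i in 13 of 31 cases and lower in 1 (median 0.38, and 6 and 6 higher without CDK4/6i replicate 1 and 2). NUAK2, a kinase induced by YAP, read 32.6 and 22.5 CPM under PRMT5i, 8.97 and 7.57 under CDK4/6i and 20.5 and 15.6 in the control (1.74 ± 0.20, adjusted p = 1.2e-04), and TEAD4, the DNA-binding partner, read 82.3 and 85.2 CPM under PRMT5i, 44.4 and 49.9 under CDK4/6i and 87.0 and 95.3 in the control (0.83 ± 0.10, adjusted p = 2.0e-04). IGFBP3, which binds IGF, was the lower member at 25.9 and 31.0 CPM under PRMT5i, 76.8 and 81.9 under CDK4/6i and 31.0 and 40.9 in the control (-1.48 ± 0.14, adjusted p = 4.0e-05). YAP1 was not called (0.071 ± 0.11, adjusted p = 0.69). MAPK feedback genes had 2 higher and 6 lower of 23, beside 11.4% and 10.7% of all genes, with 1 and 1 higher and 4 and 2 lower without CDK4/6i replicate 1 and 2. EGR1, an immediate-early factor, read 11.9 and 21.9 CPM under PRMT5i, 2.88 and 3.91 under CDK4/6i and 3.79 and 4.33 in the control (2.31 ± 0.28, adjusted p = 1.6e-04), the replicates of PRMT5i differing most. DUSP10, a phosphatase of stress kinases, read 19.5 and 25.6 CPM under PRMT5i, 43.4 and 42.6 under CDK4/6i and 17.1 and 16.7 in the control (-0.93 ± 0.13, adjusted p = 4.5e-04). Among EGF family ligands and their receptors, 1 of 15 was higher and 3 were lower, too few to set the list apart from all genes. EGF read 2.17 and 2.56 CPM under PRMT5i, 6.41 and 6.49 under CDK4/6i and 5.86 and 5.22 in the control, lower under PRMT5i than in all other libraries (-1.45 ± 0.22, adjusted p = 7.5e-04), ERBB3, a receptor for neuregulins, differed by -0.79 ± 0.10, adjusted p = 2.4e-04, and its ligand gene NRG1 was the higher member (0.62 ± 0.10, adjusted p = 7.9e-04).

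Lysosome, autophagy and V-ATPase genes were lower under PRMT5i in 19 of 42 cases and higher in 2 (median -0.34). CDK4/6i had 29 of them called above the control and PRMT5i 5, beside 14.7% and 6.64% of all genes. GAA, the lysosomal glucosidase, read 67.6 and 57.3 CPM under PRMT5i, 144 and 125 under CDK4/6i and 74.8 and 67.0 in the control (-1.11 ± 0.12, adjusted p = 7.6e-05), and ASAH1, acid ceramidase, read 22.5 and 28.3 CPM under PRMT5i, 56.6 and 50.7 under CDK4/6i and 24.1 and 24.1 in the control (-1.08 ± 0.13, adjusted p = 1.4e-04). In both, PRMT5i overlapped the control and CDK4/6i lay above. With CDK4/6i replicate 1 and 2 left out in turn, 11 and 12 were called lower. GUSB, another lysosomal enzyme, went the other way (0.59 ± 0.10, adjusted p = 0.0014). Cholesterol and fatty acid synthesis had 13 higher and 1 lower of 31 (median 0.29, and 8 and 1 higher without CDK4/6i replicate 1 and 2, or 7 without PRMT5i replicate 2). INSIG1, the sterol sensor that holds SREBP factors back, read 49.0 and 58.6 CPM under PRMT5i, 32.8 and 23.1 under CDK4/6i and 77.8 and 83.1 in the control (0.95 ± 0.15, adjusted p = 9.4e-04), with the control above both drugs.

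In the ATF4 response to amino acid shortage 9 of 30 genes were higher under PRMT5i and 3 lower (median 0.26), beside 11.4% and 10.7% of all genes. Those called higher were 3 and 3 without CDK4/6i replicate 1 and 2 and 4 without PRMT5i replicate 2 (median 0.12). ASNS, asparagine synthetase, read 51.1 and 59.7 CPM under PRMT5i, 25.8 and 29.9 under CDK4/6i and 50.4 and 65.7 in the control (0.99 ± 0.14, adjusted p = 4.8e-04), and ATF3, a stress factor, read 19.8 and 22.6 CPM under PRMT5i, 10.2 and 8.29 under CDK4/6i and 8.97 and 7.67 in the control (1.2 ± 0.16, adjusted p = 3.0e-04). The 2 differ in which drug left the control, since ASNS was lower under CDK4/6i (-1.06, adjusted p = 1.2e-04) and ATF3 higher under PRMT5i (1.35, adjusted p = 2.3e-04). SLC7A11, the cystine transporter, was lower under PRMT5i (-0.77 ± 0.12, adjusted p = 9.5e-04). Oxidative phosphorylation subunits had 4 higher and 3 lower of 57, and glycolysis 4 higher and 2 lower of 23, counts that do not set either list apart from the 11.4% and 10.7% of all genes. With either CDK4/6i replicate left out, 0 genes of oxidative phosphorylation were called, and of glycolysis 0 were called higher and 1 lower. Within glycolysis PFKFB4, which tunes phosphofructokinase, read 117 and 118 CPM under PRMT5i, 174 and 218 under CDK4/6i and 111 and 118 in the control (-0.74 ± 0.12, adjusted p = 8.2e-04). Cytokines and chemokines had 7 higher and 7 lower of 30, beside 11.4% and 10.7% of all genes, with 3 and 3 higher and 1 and 2 lower without CDK4/6i replicate 1 and 2 and 3 lower without PRMT5i replicate 1. IL11 stood at 51.1 and 73.0 CPM under PRMT5i, 19.8 and 23.6 under CDK4/6i and 31.2 and 47.5 in the control (1.51 ± 0.20, adjusted p = 2.8e-04). Of 21 cancer-testis antigens 1 was called higher and 0 lower, and the call was lost without any one of the 4 drug-treated libraries.

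**Figure D4:**
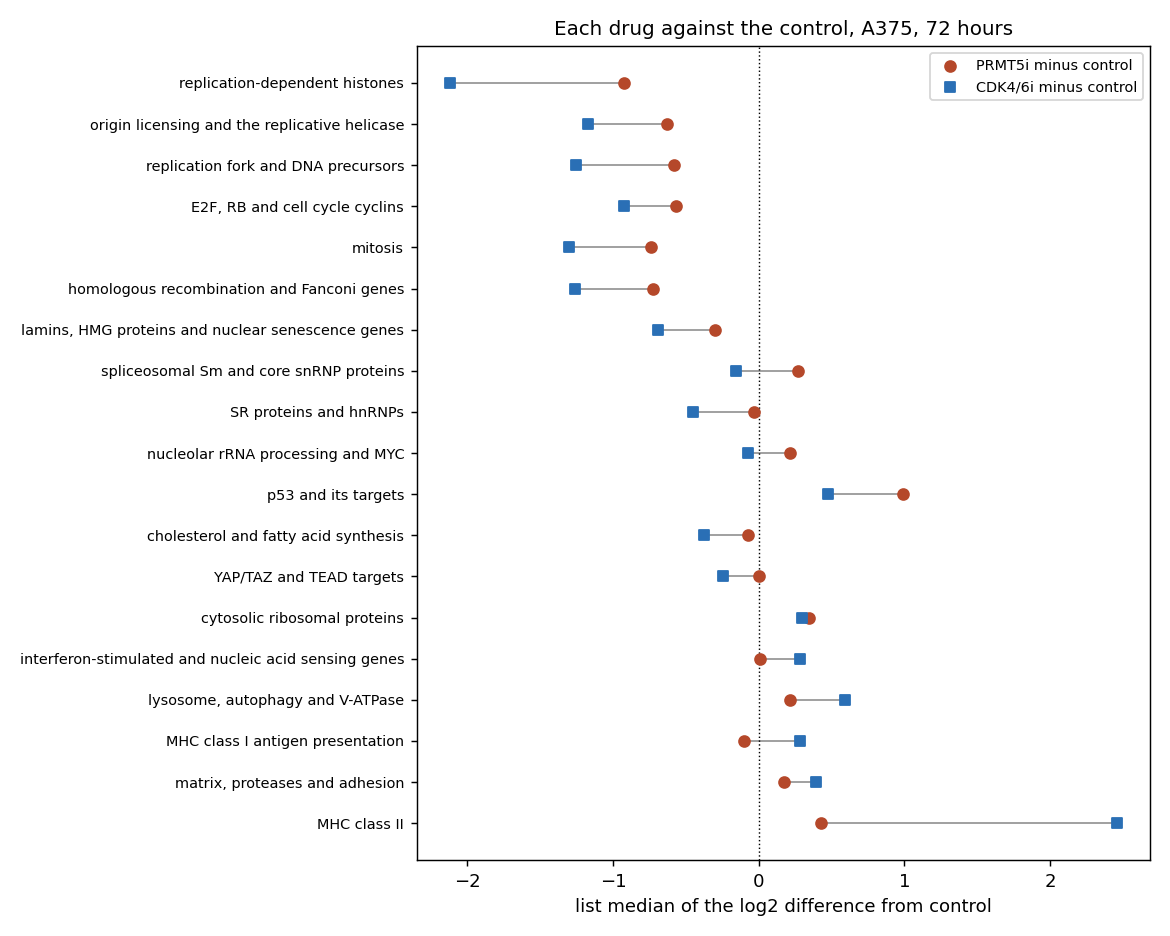
Median log2 difference from the control of 19 gene lists (rows) under PRMT5i (red circles) and CDK4/6i (blue squares), both against the same 2 control libraries; a grey line joins the 2 medians of a list. The medians of the cell cycle lists lie below 0 under both drugs, those of CDK4/6i further down (-0.93 and -2.12 for histones), of these lists that of p53 lies furthest up under PRMT5i (0.99), and the MHC class II list under CDK4/6i (2.46, or 1.67 with members at the counting floor in the control set to their bound).

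The largest single differences were taken among called genes with at least 5 CPM whose libraries did not overlap. Clone-named loci, small RNAs and ribosomal protein pseudogenes were left out, and the remaining genes were of varied function. STMN3 (GRCh37 chr20:62271058-62289035), a microtubule-binding protein of neurons, read 11.9 and 13.7 CPM under PRMT5i, 0.924 and 1.49 under CDK4/6i and 5.86 and 6.68 in the control. It was 10.6-fold higher under PRMT5i (3.39 ± 0.24, adjusted p = 1.1e-05), with the control between the drugs. INPP5D (chr2:233924677-234116549), the inositol phosphatase SHIP1 of blood cells, read 35.9 and 32.3 CPM under PRMT5i, 6.63 and 6.85 under CDK4/6i and 5.45 and 4.43 in the control, with CDK4/6i not called against the control (2.34 ± 0.15, adjusted p = 4.5e-06). EFEMP1 (chr2:56093102-56151274), a fibulin of the matrix, read 38.4 and 39.8 CPM under PRMT5i, 6.68 and 8.91 under CDK4/6i and 12.3 and 16.4 in the control (2.32 ± 0.17, adjusted p = 1.1e-05). UNC13A (chr19:17712145-17799174), a protein of synaptic vesicle release, read 30.7 and 35.2 CPM under PRMT5i, 9.45 and 9.22 under CDK4/6i and 9.28 and 9.28 in the control (1.82 ± 0.14, adjusted p = 1.1e-05), with CDK4/6i overlapping the control. WDR76 read 31.0 and 30.2 CPM under PRMT5i, 7.28 and 7.98 under CDK4/6i and 50.3 and 53.3 in the control (2.00 ± 0.12, adjusted p = 4.5e-06), and FAM111B, a protease, read 17.5 and 15.4 CPM under PRMT5i, 4.08 and 4.79 under CDK4/6i and 37.4 and 42.7 in the control (1.89 ± 0.16, adjusted p = 1.9e-05), both in the order of the replication genes.

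On the other side, LGR6 (chr1:202162927-202288909), a receptor for R-spondins, read 4.1 and 5.18 CPM under PRMT5i, 25.1 and 42.0 under CDK4/6i and 2.39 and 2.19 in the control. CDK4/6i stood 7.23-fold above PRMT5i (-2.86 ± 0.24, adjusted p = 1.8e-05), and its 2 replicates differed more than those of the other groups. MXRA8 (chr1:1288069-1297157), a cell adhesion protein, read 19.1 and 17.6 CPM under PRMT5i, 84.7 and 93.4 under CDK4/6i and 42.6 and 35.5 in the control (-2.28 ± 0.12, adjusted p = 2.5e-06), below the control under PRMT5i and above it under CDK4/6i. TACR1 (chr2:75273590-75426646), the receptor of substance P, read 1.7 and 1.28 CPM under PRMT5i, 7.66 and 9.89 under CDK4/6i and 17.3 and 13.1 in the control, lower than the control under both drugs and lowest under PRMT5i (-2.55 ± 0.26, adjusted p = 5.7e-05). RPE65, the retinoid isomerase, read 1.35 and 2.24 CPM under PRMT5i, 10.1 and 11.3 under CDK4/6i and 3.53 and 3.23 in the control (-2.58 ± 0.25, adjusted p = 4.4e-05), PRSS33, a serine protease, read 3.05 and 2.75 CPM under PRMT5i, 14.5 and 12.6 under CDK4/6i and 6.28 and 5.27 in the control (-2.22 ± 0.20, adjusted p = 2.8e-05), and NEBL, which binds actin, read 6.1 and 6.33 CPM under PRMT5i, 20.8 and 27.8 under CDK4/6i and 5.81 and 5.69 in the control (-1.97 ± 0.17, adjusted p = 2.7e-05). PCDH7, a protocadherin, read 1.76 and 2.24 CPM under PRMT5i, 6.3 and 10.8 under CDK4/6i and 1.76 and 0.991 in the control (-2.10 ± 0.32, adjusted p = 7.2e-04), and PLA2G7, a secreted phospholipase, read 1.58 and 2.43 CPM under PRMT5i, 8.91 and 8.19 under CDK4/6i and 2.23 and 2.76 in the control (-2.09 ± 0.25, adjusted p = 1.7e-04). In NEBL, PCDH7 and PLA2G7 PRMT5i was not called against the control.

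TMEM63C, an ion channel, read 2.46 and 1.73 CPM under PRMT5i, 8.91 and 9.52 under CDK4/6i and 2.49 and 0.939 in the control (-2.13 ± 0.33, adjusted p = 7.4e-04), and RTL1, a retrotransposon-derived imprinted gene, read 3.05 and 3.39 CPM under PRMT5i, 11.4 and 13.3 under CDK4/6i and 2.44 and 4.17 in the control (-1.94 ± 0.24, adjusted p = 2.0e-04). TMEM63C shares exon sequence with CIPC on its own strand, and RTL1 and several of the other named genes overlap exons of genes on the opposite strand in the GRCh37 annotation. The strandedness of the libraries is not given in the sources used here, so that reads of such neighbours cannot be told apart. The 24 genes with the largest differences, 12 in each direction, were chosen from these same libraries as called and without overlap. This choice favours keeping the call when a library is left out, so that leaving out libraries gives no further support for them.

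The difference between the drugs was also measured in CHL1, the other melanoma line of the series, which has wild-type BRAF and mutated p53 and was given the same drugs and doses. Of 20705 genes, 9564 (46.2%) differed between the lines in PRMT5i minus CDK4/6i. The CHL1 difference followed GC content far more closely, at a Spearman rho of -0.79 against -0.20 in A375 over the same genes, and with the GC trend removed 4547 of 16363 genes were called. The A375 libraries of 72 hours and the CHL1 libraries were made as different library sets, so that line and set cannot be told apart.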

How the data were processed

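Poly-A RNA of A375 and CHL1 melanoma cells was sequenced as read pairs in 18 libraries of 9 groups, of which the 6 A375 libraries of 72 hours were used here, with the others in the alternatives and in the comparison of cell lines. The authors aligned reads with HISAT2 to GRCh37 and deposited raw counts per gene made with HTSeq (version 0.11.2 in the submitters' processing notes). Strandedness is not given in the sources used here. The deposited counts were taken as they are, and CPM, log2 differences and tests were computed from them.

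Counts were scaled by TMM and fitted with edgeR 4.0.16 (glmQLFit and glmQLFTest, R 4.3.3) over the 6 libraries in 3 groups, with Benjamini-Hochberg adjustment over 20705 genes and a threshold of 0.05. Totals ran from 16213475 to 19598242 counts, and replicates differed beyond counting noise in every group. A gene with at most 3 counts in each library of a group is at the counting floor, and folds against it are bounds that cover counting error only. The difference between cell lines was an interaction over 12 libraries. GC content was that of a gene's longest transcript, and the GC trend was removed as a loess offset (span 0.4) per library. Promoters were taken from RefSeq (GRCh38.p14) by symbol, and gene coordinates are those of GRCh37. The procedure was tested on simulated counts.

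Named genes were the drug targets and genes the study names, the 12 largest differences in each direction among called genes with at least 5 CPM and no overlap between the drugs, and up to 4 called genes of at least 1 CPM in each direction of a list with the genes that give the list its name. Clone-named loci, small RNAs and ribosomal protein pseudogenes were left out of the 12 largest. The text says where a gene was chosen otherwise. The gene lists and members were chosen with earlier results of these data known, so that their counts are descriptions and no list was tested. Alternatives were other libraries in the fit, other scaling, DESeq2 1.42.0, limma 3.58.1 (voom), a filter of 1 CPM in 2 libraries, a difference of at least 1 on the log2 scale, a replicate block, the GC offset and leaving out each library. A fit on the genes with a GC value and no offset was added after seeing the data. MTAP, SOX10, MLANA and S100A1 were not analysed here. Results for a few further genes are not reported here.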

Additional observations from a re-analysis of the deposited data

Results flagged for a closer look

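The difference between the drugs was set against the same difference in CHL1, and a test of the interaction marked 9564 of 20705 genes. Of 40 genes named for the drug targets or the largest differences, 27 passed this test, and 20 of 40 passed with the GC trend removed from every library. The 20 include MDM2, MDM4, WDR76 and FAM111B, which passed only with the trend removed. Of the 40, 24 were chosen for their large A375 difference, a choice that favours passing, so that these counts describe the named genes and are not set against the 46.2% of all genes. Values are the A375 difference minus the CHL1 difference of PRMT5i minus CDK4/6i on the log2 scale, and adjusted p-values are from edgeR's quasi-likelihood test.

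The log2 difference of PRMT5i minus CDK4/6i was larger in A375 than in CHL1, and remained past the threshold with the GC trend removed, for CDK4 (1.35, from -0.028 in A375 and -1.42 in CHL1), CCND2 (3.69, from 1.95 in A375 and -1.78 in CHL1), PRMT5 (1.39, from 0.65 in A375 and -0.77 in CHL1) and STMN3 (4.57, from 3.39 in A375 and -1.22 in CHL1). The same held for INPP5D (5.19, from 2.34 in A375 and -2.89 in CHL1), C2orf48 (0.74, from 2.23 in A375 and 1.45 in CHL1), HIST2H2BF (1.91, from 2.15 in A375 and 0.19 in CHL1) and COL1A1 (3.97, from 2.12 in A375 and -1.89 in CHL1). The same held for UNC13A (2.24, from 1.82 in A375 and -0.47 in CHL1) and NUAK2 (3.12, from 1.74 in A375 and -1.43 in CHL1). These sizes are without the correction. With the trend removed they were 0.89 for CDK4, 3.81 for CCND2, 0.93 for PRMT5, 3.26 for STMN3 and 4.46 for INPP5D. They were 0.97 for C2orf48, 1.68 for HIST2H2BF, 2.76 for COL1A1, 1.41 for UNC13A and 2.18 for NUAK2. In CHL1 itself CCND2, HIST2H2BF and UNC13A were not called between the drugs. The log2 difference of PRMT5i minus CDK4/6i was smaller in A375 than in CHL1, and remained past the threshold with the GC trend removed, for EGF (-1.62, from -1.45 in A375 and 0.13 in CHL1), LGR6 (-2.25, from -2.86 in A375 and -0.65 in CHL1), PCDH7 (-2.38, from -2.10 in A375 and 0.25 in CHL1) and PLA2G7 (-2.22, from -2.09 in A375 and 0.088 in CHL1). The same held for COL6A3 (-1.39, from -1.97 in A375 and -0.62 in CHL1) and NEBL (-3.17, from -1.97 in A375 and 1.16 in CHL1). 

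The interaction no longer passed with the GC trend removed for CDK6 (-0.70, from -0.033 in A375 and 0.63 in CHL1), CCND3 (0.62, from -0.16 in A375 and -0.83 in CHL1), RB1 (-1.27, from 0.0012 in A375 and 1.23 in CHL1) and E2F2 (1.50, from 1.08 in A375 and -0.46 in CHL1). Nor did it for CDC45 (0.69, from 0.88 in A375 and 0.15 in CHL1), U2AF2 (1.22, from -0.087 in A375 and -1.35 in CHL1), CDC27 (-1.26, from 0.17 in A375 and 1.39 in CHL1) and CDK16 (0.96, from -0.21 in A375 and -1.21 in CHL1). Nor did it for RPE65 (-5.56, from -2.58 in A375 and 2.94 in CHL1), MXRA8 (1.24, from -2.28 in A375 and -3.56 in CHL1) and PRSS33 (2.39, from -2.22 in A375 and -4.65 in CHL1). For RB1 the interaction was -0.21 with the trend removed (adjusted p = 0.33) and for U2AF2 it was 0.024 (adjusted p = 0.98). With the trend removed, the interaction went from 0.14 to 1.02 for MDM2 and from -0.095 to 0.52 for MDM4. It went from 0.31 to 1.11 for WDR76 and from -0.047 to 0.97 for FAM111B. The CHL1 difference followed GC content at a Spearman rho of -0.79 over 13254 genes and the A375 difference at -0.20. The A375 and CHL1 libraries are of different library sets, and line and set cannot be told apart.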

How the results depend on the processing

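Of 20705 genes, 4571 were called between the drugs. The count was 1129 with all 10 A375 libraries, 1085 with a difference of at least 1 on the log2 scale required, and 1368 to 4520 with any single library left out. It was 4517 with only the 4 drug-treated libraries, 4496 with median-of-ratios scaling, 3842 with DESeq2, 3983 with voom, 4643 with the filter on low levels and 4100 with the GC offset. The share higher under PRMT5i was 51.7%, against 43.4% with all 10 libraries and 37.5% of genes past 1 on the log2 scale, and no gene called in common turned its direction under an alternative. For PRMT5i against the control, 3265 genes became 541 with all 10 libraries, 676 past 1 on the log2 scale and 1598 to 3225 with any single library left out. For CDK4/6i against the control, 6424 became 2761 with all 10 libraries, 1874 past 1 on the log2 scale and 3237 to 7014 with any single library left out. The 9564 genes that differed between lines became 4547 with the GC offset and 7942 to 10182 with any single library left out. The position of the control, as the share of called genes for which it lay nearer to PRMT5i, was 73.8% and ran from 65.7% to 80.7% with any single library left out. Where a group was left with 1 library, it was assumed to vary like the others. The causes were not tested. Of 212 named genes, 77 lost their call with all 10 libraries, 67 and 72 without CDK4/6i replicate 1 and 2, 17 and 29 without PRMT5i replicate 1 and 2, 11 with the GC offset and 12 with voom. Genes with few counts are limited by depth.

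The labels do not say that a replicate number marks a batch or day, and the groups share only a number. With a replicate block 7167 genes were called between the drugs, 6113 between PRMT5i and control and 8752 between CDK4/6i and control, and with the block and the GC offset 6467, 5469 and 7615. The block with the GC offset gave 6165 genes for the difference between lines. Deviations from the group mean correlated between replicates of the same number at 0.22 (PRMT5i with CDK4/6i), 0.42 (PRMT5i with control) and 0.19 (CDK4/6i with control) over 15064 genes.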

Other observations

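Loci with clone names were counted apart from named genes. Of 4349 tested, 417 (9.59%) were called between PRMT5i and CDK4/6i, against 22.1% of all genes tested, 173 higher and 244 lower under PRMT5i. No filter on low levels was applied, and 177 of the 417 had at least 5 CPM and no overlap between the drugs. The part of low counts in the smaller share was not tested. The largest differences with at least 5 CPM and no overlap between the drugs were those of CTD-2116N17.1 (log2 difference 1.58) and RP11-1220K2.2 (log2 difference -2.20). Over the alternatives they ran from 1.39 to 1.79 and from -2.40 to -1.97. Both loci were chosen from these same libraries for their size and lack of overlap, which favours such stability.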
